A study of Mus musculus with 19 samples.

Results

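A set of 10 genes of the disease-associated state of microglia were followed in retinal microglia sorted 3 days after laser-induced choroidal neovascularization (CNV d3). The genes are the receptor *Trem2*, its signalling adaptor *Tyrobp*, and *Axl*, *Itgax*, *Cst7*, *Gpnmb*, *Cd9*, *Cd63*, *Lpl* and *Timp2*. They were chosen by name, as genes of that state in the brain, with earlier results of these data known. They are 10 of the 27299 genes in the deposited table. All 10 were measured, and all 10 had at least 10 normalized counts in at least 6 samples.

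The study compared 6 lasered samples (CNV d3) with 6 samples from unlasered eyes (control). The mice were 8 weeks old. The labels name the strain C57BL/6J, whereas the methods name *Cx3cr1* GFP/+ mice, which carry GFP in place of 1 copy of *Cx3cr1* in both groups. In the lasered eyes 6 argon laser burns per retina ruptured the pigment epithelium and Bruch's membrane beneath it, and only the central retina was taken from eyes of either group. The cells were sorted as positive for CD45, CD11b and CX3CR1 and negative for Ly6C and Ly6G. The methods specify low CD45. Each bulk sample mixes such cells from the central retina, so cells close to a burn and farther from it were measured together. Each sample has 1 time point. The sources used here do not state whether a sample is 1 mouse or a pool, so that all p-values describe the spread between these samples.

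TREM2 is a lipid-sensing receptor on the surface of microglia that has no signalling tail of its own and depends on the adaptor TYROBP (also called DAP12), which recruits the kinase SYK. In the brain, microglia near dying cells, myelin debris or amyloid first lose part of their homeostatic genes and gain genes such as *Apoe* and *Tyrobp* without TREM2. They then need TREM2 to gain a further set for phagocytosis, lysosomes and lipid handling, to which *Axl*, *Itgax*, *Cst7*, *Cd9*, *Lpl* and others belong.

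Between 10963178 and 22335233 reads lay on genes in the control samples and between 23532260 and 29523018 in CNV d3, so every CNV d3 sample was deeper than every control. Values are normalized counts, in which 1 read was worth between 0.739 and 1.99. Markers of microglia were abundant in all samples, with a summed level of 1149190 to 1304440 in control and 641619 to 951325 in CNV d3. Of 9 monocyte markers 4 were higher at CNV d3 and none was lower, with a summed level of 221 to 1073 in control and 1250 to 4443 in CNV d3. Of 9 dendritic cell markers 5 were higher and 1, *Siglech*, which microglia express too, was lower. Without *Siglech* the dendritic cell markers summed to between 307 and 849 in control and between 550 and 2004 in CNV d3. *Cd209a* and *Clec10a* were at 0 in every control and ran from 0.739 to 510 and from 0 to 101 in CNV d3. *Batf3*, *Zbtb46* and *Clec9a* did not pass. Their means were 372, 169 and 4.49 in control and 295, 136 and 3.85 in CNV d3. All 5 markers of dividing cells were higher, from a sum of 88.3 to 878 in control to 5874 to 14958 in CNV d3. None of 5 measured neutrophil markers and none of 4 lymphocyte markers passed the test, and their sums stayed under 31 in every sample. None of 10 photoreceptor markers passed. They summed to 867 to 7471 in control and 645 to 13109 in CNV d3, highest in replicate 4. Mueller glia and astrocyte markers (2 higher, 1 lower) summed to 6846 to 9909 and 8031 to 9021. Border macrophage markers (2 higher) summed to 2162 to 3482 and 2741 to 3793. Endothelial and pericyte markers (1 higher, 1 lower) summed to 500 to 990 and 457 to 965. The Y-linked gene *Ddx3y* had no read in any control or in CNV d3 replicates 1 to 3, and between 1239 and 1450 normalized counts in CNV d3 replicates 4 to 6. The groups therefore differ in the sex of the mice, and values for CNV d3 replicates 1 to 3 alone are given beside the results.

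At CNV d3, 7 of the 10 genes changed, and they went both ways (limma, Benjamini-Hochberg adjusted p under 0.05 over all genes). Of these, 5 were higher, namely *Axl*, *Itgax*, *Cst7*, *Gpnmb* and *Cd63*, where 8.29% of all genes were higher. *Trem2* itself and *Cd9* were lower, where 4.57% of all genes were lower. Among the 12753 genes with at least 10 normalized counts in at least 6 samples, 16.9% were higher and 12.1% were lower. *Gpnmb* also passed the fold threshold for an increased DEG in limma (log2 fold change above 1.5), as did 3.91% of all genes. It was not called in edgeR (adjusted p = 0.0808) or DESeq2 (adjusted p = 0.184), and its limma call held in 3 of 12 fits that left out a sample. No member was a decreased DEG in limma, edgeR, DESeq2 or limma voom, although 3 had an unadjusted limma p under 0.05 and a negative log2 fold change. The groups did not overlap for *Axl*, *Itgax*, *Cst7* and *Cd63*, which lay above control in all 6 samples, as did 4.64% of all genes. *Trem2* was the member that lay below control in all 6 samples, as did 2.83% of all genes. The median log2 fold change was 0.46 over the members and 0.15 over all genes. With CNV d3 replicates 1 to 3 alone, 2 members were called higher (*Axl* and *Cd63*) and 1 lower (*Trem2*), and all 10 kept their direction. In that fit 1022 of all 27299 genes were higher and 540 were lower. With CNV d3 replicates 1 and 4 alone, which had the fewest *Cd209a* reads, no member was called in a fit with 2 CNV d3 samples. All 10 again kept their direction, and 672 of all 27299 genes were higher and 154 lower. Replicate 4 also had the highest photoreceptor marker sum of all samples.

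**Figure D1:**
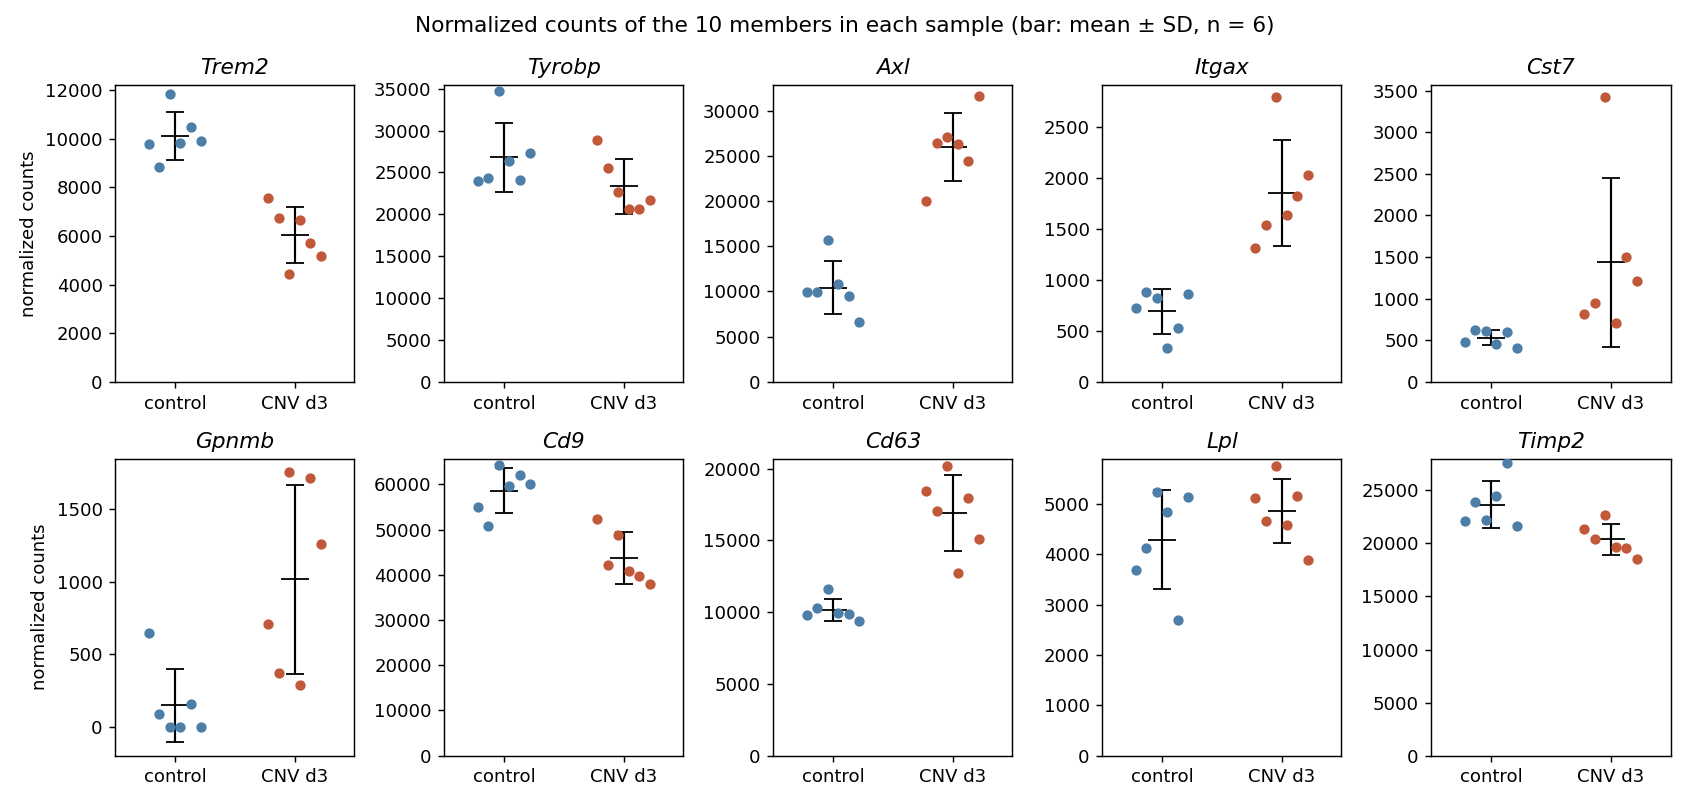
Normalized counts (vertical axis, from 0 or just below it) of each member in the 6 control samples (blue) and the 6 CNV d3 samples (orange), with black bars for the mean ± SD. *Trem2* lies below all controls in every CNV d3 sample, *Axl*, *Itgax*, *Cst7* and *Cd63* lie above, and *Gpnmb*, *Cd9*, *Lpl*, *Timp2* and *Tyrobp* overlap.

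**Figure D2:**
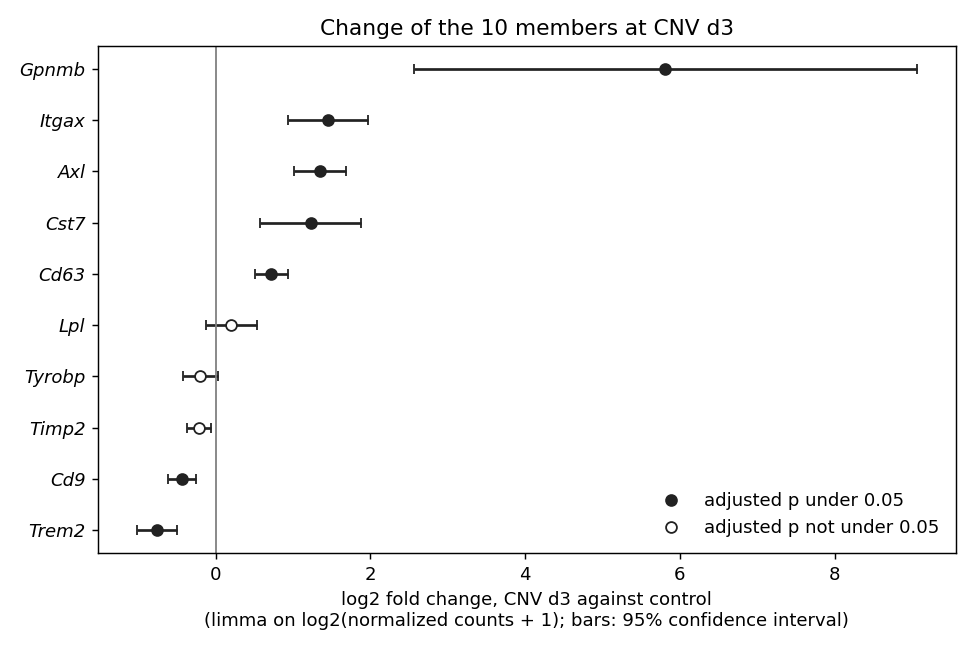
Log2 fold change of CNV d3 against control (horizontal axis) with 95% confidence intervals for the 10 members, from limma on log2(normalized counts + 1), with filled points for an adjusted p under 0.05. *Gpnmb* has the largest change, 5.81, and by far the widest interval, and *Trem2* has the largest decrease.

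The promoters of the 3 members that encode cell surface receptors and whose groups did not overlap are shown to place *Trem2*, which fell, beside *Axl* and *Itgax*, which rose. Each is the 250 bases before the RefSeq transcript start on GRCm38.p6, and 8 of the 10 members had an entry. The windows are chr17:48346151-48346400 on the plus strand for *Trem2*, chr7:25788734-25788983 on the minus strand for *Axl* and chr7:128129300-128129549 on the plus strand for *Itgax*. Capitals mark the letters GAGGAA or their reverse complement, the core read by the myeloid factor PU.1. They also mark TGANTCA, a pattern looser than the site of AP-1 factors, in which N is C or G.
*Trem2*: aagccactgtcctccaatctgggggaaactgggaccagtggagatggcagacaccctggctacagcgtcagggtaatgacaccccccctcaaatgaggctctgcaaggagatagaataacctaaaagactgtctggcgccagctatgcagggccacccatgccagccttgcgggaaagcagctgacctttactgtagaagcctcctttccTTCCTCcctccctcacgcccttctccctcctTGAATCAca
*Axl*: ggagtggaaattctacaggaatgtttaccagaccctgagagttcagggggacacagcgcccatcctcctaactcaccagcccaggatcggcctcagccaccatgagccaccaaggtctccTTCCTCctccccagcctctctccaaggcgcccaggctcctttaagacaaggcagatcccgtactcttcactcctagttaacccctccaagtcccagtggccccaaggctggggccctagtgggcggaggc
*Itgax*: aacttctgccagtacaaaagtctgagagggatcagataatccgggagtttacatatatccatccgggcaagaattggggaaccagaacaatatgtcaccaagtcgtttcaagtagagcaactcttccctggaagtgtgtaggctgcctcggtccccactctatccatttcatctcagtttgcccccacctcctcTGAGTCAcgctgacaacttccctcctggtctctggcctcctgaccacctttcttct
GAGGAA, searched on both strands, was in the windows of *Trem2*, *Axl* and *Cd63*, that is 3 of 8, and in 23.3% of 32851 promoter windows of the same length. TGANTCA with any letter at N, whose reverse complement has the same form, was in those of *Trem2* and *Itgax* and in 6.75% of all. CATGTG, the core of the M-box of MITF-type factors, was in that of *Cd9* and in 12.3% of all. CACGTG, the E-box of the same factors, was in none of the 8, *Gpnmb* included, and in 6.02% of all. The motifs do not overlap each other in these windows. *Trem2*, which was lower, and *Itgax*, which was higher, thus both match the pattern TGANTCA, with A at its N in *Trem2* and G in *Itgax*. Only the stretch in *Itgax* has the letters of the AP-1 site.

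*Trem2* (ENSMUSG00000023992, chr17:48346401-48354147, plus strand) encodes the receptor and fell at CNV d3. It had between 8824 and 11838 normalized counts in control, with a median of 9867, and between 4450 and 7571 in CNV d3, with a median of 6188. The highest CNV d3 sample was replicate 1 and the lowest replicate 3, and even replicate 1 lay under the lowest control. The mean was 59.9% of that of control, with a log2 fold change of -0.76 ± 0.12 (SE, n = 6 per group) and an adjusted p of 0.000741 in limma. The exact permutation test over all labellings, two-sided as all those here, gave p = 0.00216, the smallest it can give. In such bulk samples fewer cells with a transcript and less of it per cell cannot be told apart. With CNV d3 replicates 1 to 3 alone the log2 fold change was -0.72 (limma, adjusted p = 0.0466).

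*Tyrobp* (ENSMUSG00000030579, chr7:30413760-30417585, plus strand) encodes the adaptor. Its values ran from 23921 to 34709 in control, with a median of 25387, and from 20614 to 28919 in CNV d3, with a median of 22193. The ranges overlap, although 4 of 6 CNV d3 samples lay under the lowest control, and control replicate 3 stood well above the rest. The log2 fold change was -0.20 ± 0.11 with a 95% interval from -0.42 to 0.03 (limma, adjusted p = 0.270), so a change was not detectable and a loss of the size of *Trem2* lies outside the interval.

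The ratio of *Trem2* to *Tyrobp* within a sample does not depend on the scaling between samples, and it fell too. It was between 0.341 and 0.434 in control (mean 0.380 ± 0.0347, SD, n = 6) and between 0.196 and 0.323 in CNV d3 (mean 0.260 ± 0.0421, SD, n = 6). No CNV d3 sample reached the lowest control. The mean log2 ratio differed by -0.56 (exact permutation test, p = 0.00216), and by -0.67 with CNV d3 replicates 1 to 3 alone (exact permutation test, p = 0.0119, the smallest possible with 3 against 6).

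On the scale of normalized counts per kb of transcript, the adaptor was the more abundant of the pair. *Tyrobp* had 47529 per kb in control and 41391 in CNV d3, which placed it 24th and 23rd among 16008 protein-coding genes. *Trem2* had 9291 and 5562 per kb, and its place moved from 99 to 201.

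**Figure D3:**
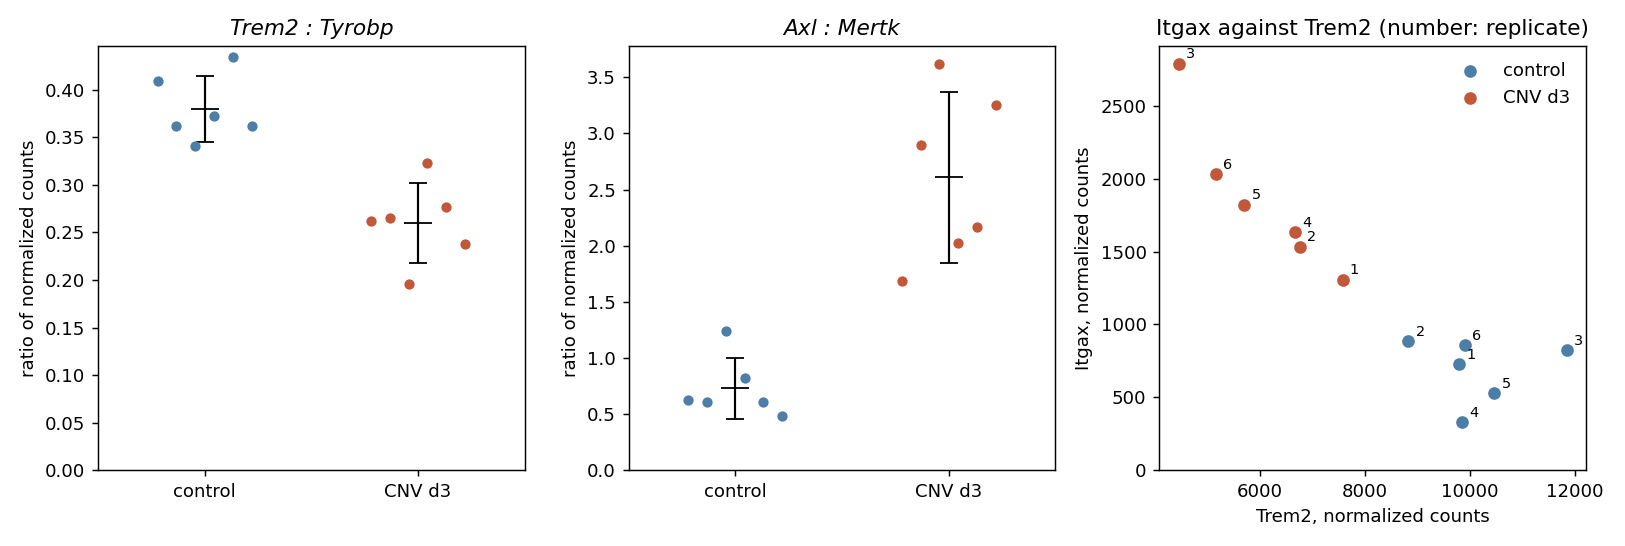
The left and middle panels show the ratio of normalized counts of *Trem2* to *Tyrobp* and of *Axl* to *Mertk* in each control (blue) and CNV d3 (orange) sample, with bars for the mean ± SD. The right panel plots *Itgax* against *Trem2* in normalized counts with replicate numbers, where both ratios separate the groups and the 6 CNV d3 samples fall along a descending line.

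A list of 7 genes held relatives of *Trem2* and the TYROBP-coupled receptors *Siglech* and *Clec5a*. The relatives were listed by family, not by coupling to TYROBP. Of the 7, 1 was higher, 2 were lower and 4 did not pass. *Siglech*, a lectin of microglia, fell from 47164 ± 1660 to 33584 ± 6086 normalized counts (SD, n = 6), and *Clec5a*, a C-type lectin receptor, from 5717 ± 1146 to 3626 ± 648. *Treml2* rose from 43.9 ± 19.1 to 134 ± 28.5. *Trem1*, *Trem3*, *Treml1* and *Treml4*, relatives of *Trem2*, had group means of 0 to 42.0 and did not pass. Beneath the receptors, 4 of 17 signalling genes rose, 2 fell and 11 did not pass. The GTPase gene *Rac2* rose 1.93-fold (limma, adjusted p = 3.71e-05). *Vav1*, a nucleotide exchange factor, rose 1.19-fold, and *Pik3cd*, a catalytic subunit of PI3-kinase, 1.24-fold. The fourth to rise was *Syk*, the kinase that binds TYROBP, which was picked out after its values were seen and rose to 122% of control (limma, adjusted p = 0.0466). *Lyn*, a Src-family kinase, fell to 83.0% of control and *Pik3r1*, a regulatory subunit of PI3-kinase, to 71.4%. *Inpp5d*, the phosphatase SHIP1 that opposes PI3-kinase, had 20112 ± 867 in control and 18946 ± 1410 in CNV d3 and did not pass.

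Of 5 measured genes for enzymes that cleave TREM2 from the cell surface and for lipoproteins it binds, 3 rose and none fell. *Apoe* rose 3.30-fold, from 20865 ± 7381 to 68946 ± 16057 (limma, log2 fold change 1.77, adjusted p = 9.45e-05), and the groups did not overlap. *Adam17*, a sheddase, rose to 122% of control (limma, adjusted p = 0.0365), while the sheddase *Adam10* had 18685 ± 2945 and 20958 ± 2016 and did not pass. *Clu*, with no read in 3 controls, went from a mean of 21.8 to 80.8 normalized counts (limma, adjusted p = 0.0293). *Apob* had group means of 0.526 and 3.69 and did not pass, and *Apoa1* was not analysed here. Thus *Apoe* was higher and *Trem2* lower in CNV d3 as a group. A relation between the 2 genes among the CNV d3 samples was not tested.

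*Axl* (ENSMUSG00000002602, chr7:25757273-25788705, minus strand) encodes a TAM receptor, a tyrosine kinase that binds GAS6 on dying cells, and it was the abundant member that rose most. It had between 6673 and 15642 normalized counts in control, with a median of 9893, and between 20044 and 31597 in CNV d3, with a median of 26347. Control replicate 3 was the highest of its group and still lay below CNV d3 replicate 1, the lowest of the lasered samples. The mean rose 2.50-fold, with a log2 fold change of 1.35 ± 0.16 (limma, adjusted p = 8.18e-05, exact permutation p = 0.00216). The value with CNV d3 replicates 1 to 3 alone was 1.27 (limma, adjusted p = 0.0220).

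The other TAM receptor of microglia went the opposite way. *Mertk*, which clears apoptotic cells at rest, fell to 71.4% of control, from 14594 ± 1540 to 10414 ± 2025 normalized counts (limma, adjusted p = 0.0128). *Tyro3* had group means of 0.169 and 7.59 and did not pass. The ligand gene *Gas6* rose 1.57-fold (limma, adjusted p = 0.000623), whereas *Pros1*, the other ligand, had 26789 ± 2849 and 26310 ± 2439. The ratio of *Axl* to *Mertk* was between 0.479 and 1.24 in control (mean 0.729 ± 0.273, SD, n = 6) and between 1.69 and 3.62 in CNV d3 (mean 2.61 ± 0.763, SD, n = 6). *Mertk* thus had more reads than *Axl* in 5 of 6 control samples and fewer in all 6 CNV d3 samples, and the log2 ratio differed by 1.86 (exact permutation test, p = 0.00216).

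*Itgax* (ENSMUSG00000030789, chr7:128129547-128150657, plus strand) encodes the integrin subunit CD11c, which marks dendritic cells as well as activated microglia. Its values were between 331 and 885 in control, with a median of 774, and between 1308 and 2787 in CNV d3, with a median of 1727. CNV d3 replicate 3 was the highest and replicate 1 the lowest of the lasered samples, and no control reached replicate 1. The mean rose 2.68-fold, with a log2 fold change of 1.45 ± 0.24 (limma, adjusted p = 0.00108, exact permutation p = 0.00216). With CNV d3 replicates 1 to 3 alone it was 1.44 and missed the threshold (limma, adjusted p = 0.0722), with all 3 above every control. Of 4 other leukocyte integrin genes, *Itgam* (CD11b, used in the sort) rose 1.65-fold and *Itgal* (CD11a) 4.81-fold. The shared beta subunit *Itgb2* had 24945 ± 1569 and 26356 ± 1322, and *Itgad* had no read in any control and a mean of 5.38 in CNV d3; neither passed.

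Among the CNV d3 samples *Itgax* was highest where *Trem2* was lowest. In the order of falling *Trem2* (replicates 1, 2, 4, 5, 6 and 3) *Itgax* was at 1308, 1534, 1633, 1821, 2032 and 2787. Pearson's r on the log2 scale was -0.98 (exact permutation over 720 pairings, p = 0.00139) and Spearman's rho -1 (exact permutation p = 0.00278), and both had an adjusted p of 0.025 over the 18 relations of members with *Trem2* within a group. Leaving out the 2 samples whose *Trem2* lay farthest from its median, r was -0.98. In control r was -0.013 (exact permutation p = 0.967), and the difference between the groups was not tested. The 3 CNV d3 samples with the lowest *Trem2*, replicates 3, 5 and 6, also had the highest summed monocyte markers, at 4443, 2835 and 4012, against 1250, 2305 and 1471 in replicates 1, 2 and 4. Dendritic cell markers without *Siglech* summed to 559, 1111, 2004, 550, 1016 and 1710 in replicates 1 to 6, and the part of such cells in the relation was not tested. With 3 CNV d3 samples on either side of *Ddx3y* no test within a sex was made. A rho of -1 over all 6 samples already fixes the inverse order within replicates 1 to 3 and 4 to 6. Those orders therefore add nothing to the relation.

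No other CNV d3 relation passed. *Cst7* had r = -0.89 with *Trem2* (exact permutation p = 0.0167, adjusted p = 0.1). In control, *Cd9* ranked as *Trem2* did in all 6 samples, with rho = 1 (exact permutation, adjusted p = 0.025) and r = 0.89 (exact permutation, adjusted p = 0.0875), and r was 0.71 without the 2 farthest samples. Over all 12 samples, as a description that the group difference dominates, the genes most like *Trem2* of 9713 with a mean of at least 100 normalized counts were *Cst3* (r = 0.99), *Sting1* (r = 0.99) and *Susd3* (r = 0.98), whose log2 fold changes were -1.47, -0.81 and -0.88.

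*Cst7* (ENSMUSG00000068129, chr2:150570415-150578944, plus strand) encodes cystatin F, an inhibitor of lysosomal cathepsins. It had between 413 and 619 normalized counts in control, with a median of 543, and between 706 and 3418 in CNV d3, with a median of 1083. The controls were close together, whereas CNV d3 replicate 3 stood far above the other lasered samples, of which the next was 1503 in replicate 5. The mean rose 2.71-fold, with a log2 fold change of 1.23 ± 0.31 (limma, adjusted p = 0.0147, exact permutation p = 0.00216). Without CNV d3 replicate 3 it was 0.93 (limma, adjusted p = 0.0148). The call was lost without control replicate 6 (limma, adjusted p = 0.0515), without CNV d3 replicate 5 (0.0624) and without CNV d3 replicate 6 (0.0581), and with CNV d3 replicates 1 to 3 alone (log2 fold change 1.40, adjusted p = 0.121).

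The cystatins and cathepsins around it went both ways, with 4 of 8 higher and 2 lower. *Cst3*, the secreted cystatin C and among the most abundant transcripts of microglia, fell to 37.8% of control, from 693313 ± 60468 to 262150 ± 87032 normalized counts. *Cstb*, a cytosolic cystatin, rose 1.61-fold. The cathepsins *Ctsb*, *Ctsl* and *Ctsh* rose 1.43-fold, 1.32-fold and 1.32-fold, and *Ctss* fell to 76.2% of control. *Ctsc*, a target of cystatin F, had 56960 ± 3525 and 63758 ± 5077, and the legumain gene *Lgmn* had 120629 ± 8425 and 110525 ± 10977; neither passed. Cystatin F and cystatin C therefore moved in opposite directions.

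*Gpnmb* (ENSMUSG00000029816, chr6:49036546-49070929, plus strand) encodes a transmembrane glycoprotein of lysosomes in lipid-laden phagocytes. In control it had no read in replicates 3, 4 and 6 and 647, 89.1 and 159 normalized counts in replicates 1, 2 and 5. In CNV d3 it ran from 291 to 1755, with a median of 984. All 6 lasered samples had reads, and 4 of 6 lay above the highest control, so the groups overlap. The means were 149 and 1017, a 6.82-fold difference, and the log2 fold change was 5.81 ± 1.52 (limma, adjusted p = 0.0195, exact permutation p = 0.00649), and with 3 controls at 0 it depended on the pseudocount, at 6.31 with a pseudocount of 0.5 and 4.64 with 5, at 6.31 with 0.5 and 4.64 with 5. On the recovered reads it was 2.75 in edgeR's quasi-likelihood test (adjusted p = 0.0808) and 2.77 in DESeq2 (adjusted p = 0.184), neither of which passed. The call held in 3 of the 12 fits that left out a sample, and the adjusted p rose to at most 0.0884 in the other 9. With CNV d3 replicates 1 to 3 alone it did not pass (limma, adjusted p = 0.261).

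None of the genes for MiT factors, which switch on lysosomal genes, was called. *Mitf* had 678 ± 199 and 546 ± 136 normalized counts in control and CNV d3, *Tfeb* 1106 ± 253 and 837 ± 148, and *Tfe3* 3317 ± 612 and 2820 ± 209. *Tfec* had no read in 5 of 6 controls and 139 in the other, against 0 to 70.6 in CNV d3. *Pmel*, a melanosome relative of *Gpnmb*, had group means of 24.8 and 23.9. None of these 5 genes passed in either direction in limma, edgeR, DESeq2 or limma voom, and in limma 2 of them had an unadjusted p under 0.05, *Tfeb* with a log2 fold change of -0.39 and *Tfec* with 3.12. Of 8 measured markers of pigment epithelium and melanocytes, which also express *Gpnmb*, none passed, and their sum was 2.15 to 264 in control and 73.9 to 301 in CNV d3.

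The tetraspanins *Cd9* and *Cd63* moved in opposite directions. *Cd9* (ENSMUSG00000030342, chr6:125460266-125494791, minus strand) encodes a tetraspanin of the plasma membrane, and 218 of its exonic bases, 10.7%, are shared with *Gm26728* on the other strand, where counting without strand drops reads. It had between 50831 and 64382 normalized counts in control, with a median of 59873, and between 37922 and 52463 in CNV d3, with a median of 41532. CNV d3 replicate 1 lay within the control range and the other 5 lasered samples lay under it. The mean was 74.4% of control, with a log2 fold change of -0.43 ± 0.09 (limma, adjusted p = 0.00367, exact permutation p = 0.00433). With CNV d3 replicates 1 to 3 alone the value was -0.30 and did not pass (limma, adjusted p = 0.139).

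*Cd63* (ENSMUSG00000025351, chr10:128900989-128912822, plus strand) encodes a tetraspanin of late endosomes, lysosomes and exosomes. It had between 9391 and 11634 normalized counts in control, with a median of 9918, and between 12712 and 20149 in CNV d3, with a median of 17522. The controls lay within a narrow band and replicate 4 was the lowest lasered sample, above all of them. The mean rose 1.66-fold, with a log2 fold change of 0.72 ± 0.10 (limma, adjusted p = 0.000312, exact permutation p = 0.00216), and 0.87 with CNV d3 replicates 1 to 3 alone (limma, adjusted p = 0.000945).

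On the scale of normalized counts per kb of transcript, *Cd9* was 22nd in control and 28th in CNV d3 among protein-coding genes, and *Cd63* went from place 100 to place 63. Of 9 other tetraspanins and their partners, 6 were lower and none was higher. The most abundant were *Cd81* at 72.0% of control, *Cd53* at 79.2%, *Cd37* at 53.6% and *Cd82* at 58.0%, all with groups that did not overlap. *Tspan3* had 2533 ± 543 and 2905 ± 166 and did not pass. Within this family the increase was thus seen for *Cd63*, and *Cd9* fell with those that were lower.

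*Lpl* (ENSMUSG00000015568, chr8:68880491-68907448, plus strand) encodes lipoprotein lipase. It had between 2700 and 5234 normalized counts in control, with a median of 4486, and between 3884 and 5752 in CNV d3, with a median of 4889. The groups overlap almost wholly. The log2 fold change was 0.21 ± 0.15, with a 95% interval from -0.12 to 0.53 (limma, adjusted p = 0.448), so a change was not detectable with 6 samples a group.

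Of 9 measured genes for lipases, their regulators and lipid uptake or storage, 4 were higher, none was lower and 5 did not pass. The fatty acid and lipoprotein scavenger receptor gene *Cd36* rose 32.3-fold, from 82.0 ± 35.6 to 2651 ± 956 normalized counts (limma, adjusted p = 1.04e-06). *Fabp5*, a fatty acid carrier, rose 13.8-fold, and *Plin2*, which coats lipid droplets, 1.88-fold. *Angptl4*, an inhibitor of lipoprotein lipase, had no read in 5 of 6 controls and 111 normalized counts in the sixth, against 9.52 to 48.5 in CNV d3 (limma, adjusted p = 0.0380), so that the highest sample of this gene was a control. *Lipa*, the lysosomal acid lipase, had 7374 ± 606 and 6398 ± 549 and did not pass, and *Apoc2* was not analysed here.

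*Timp2* (ENSMUSG00000017466, chr11:118301069-118355740, minus strand) encodes an inhibitor of matrix metalloproteinases. It had between 21631 and 27527 normalized counts in control, with a median of 23037, and between 18568 and 22712 in CNV d3, with a median of 20043. In CNV d3, 5 of 6 samples lay under the lowest control and replicate 3 lay within the control range. The log2 fold change was -0.21 ± 0.07, with a 95% interval from -0.37 to -0.05, and did not pass the threshold (limma, adjusted p = 0.0755, exact permutation p = 0.0130). It passed on the recovered reads in DESeq2 (adjusted p = 0.0273) and limma voom (adjusted p = 0.0342), with the filter on low values (adjusted p = 0.0466) and without CNV d3 replicate 3 (adjusted p = 0.0461).

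The metalloproteinases themselves rose. *Mmp14*, a membrane-bound enzyme, rose 1.81-fold and *Mmp2*, which it activates together with TIMP2, 1.63-fold, both with groups that did not overlap. *Mmp9* had no read in any control and 0 to 32.4 normalized counts in CNV d3 (limma, adjusted p = 0.0354). *Timp1*, at 0 in control and a mean of 4.74 in CNV d3, and *Timp3*, at means of 17.6 and 4.22, did not pass, and *Timp4* was not analysed here.

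**Figure D4:**
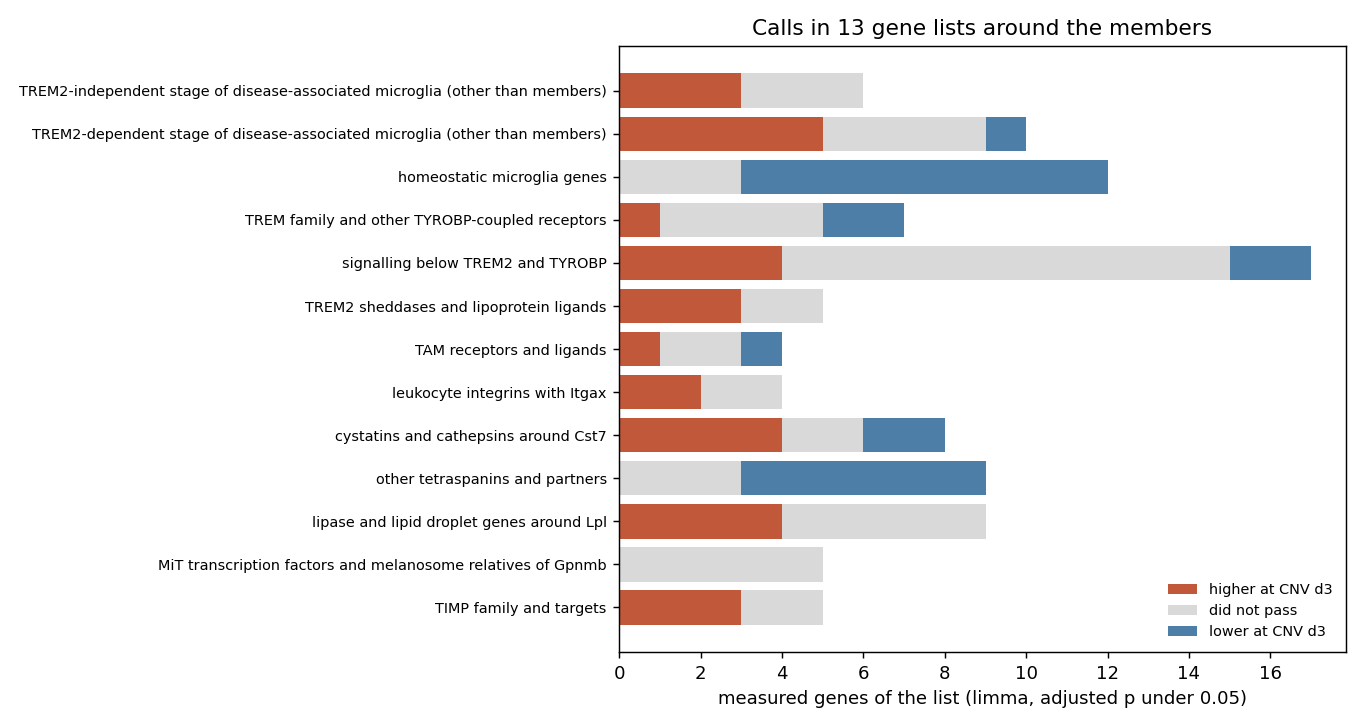
Bars give, for 13 lists of genes around the members (vertical axis), how many measured genes (horizontal axis) were higher at CNV d3 (orange), lower (blue) or did not pass (grey). None of 12 homeostatic genes was higher and 9 were lower, whereas 5 of 10 genes of the TREM2-dependent stage were higher and 1 was lower.

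Over the 13 lists, which held 97 measured genes other than the members, 27 were higher and 22 were lower, where 8.29% and 4.57% of all genes were, and 16.9% and 12.1% of those with at least 10 normalized counts in at least 6 samples. Some lists lay close to these shares, such as the signalling genes with 4 of 17 higher and 2 of 17 lower. The lists were chosen with earlier results of these data known, so these counts are a description. Of 6 genes of the stage that does not need TREM2, *Apoe*, *Lyz2* and *Ctsb* rose, by 3.30-fold, 2.25-fold and 1.43-fold. *Ctsd* had 208543 ± 14198 and 188922 ± 24229 in control and CNV d3, *B2m* 99498 ± 14468 and 112164 ± 13438, and *Fth1* 71153 ± 9690 and 85637 ± 8334; these 3 did not pass. The median log2 fold change of the 6 was 0.39. Of 10 other genes of the TREM2-dependent stage 5 rose and 1 fell, with a median of 0.98.

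*Spp1*, the matrix protein osteopontin, rose 96.3-fold, from 162 ± 137 to 15560 ± 8802 normalized counts. *Csf1*, a growth factor of microglia, rose 2.29-fold and the lysosomal protease gene *Ctsl* 1.32-fold, while the chemokine gene *Ccl6* fell to 68.2% of control. The remaining 2 that rose, named after their values were seen, were *Lgals3*, a galectin, by 8.55-fold and *Igf1*, a growth factor, by 2.82-fold. *Cd68*, a lysosomal glycoprotein, had 28068 ± 1182 and 24811 ± 3039 and did not pass.

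Most homeostatic genes fell, as *Trem2* did. Of 12, 9 were lower and none was higher, with a median log2 fold change of -0.69. *P2ry12*, the purinergic receptor that guides microglial processes, fell to 32.7% of control, *Tmem119* to 49.3% and *Selplg* to 52.7%. *Csf1r*, the receptor for the growth factor CSF1, had 345828 ± 10697 and 303485 ± 44712 and did not pass. Set beside these values, the decrease of *Trem2* to 59.9% of control was smaller than those of the 3 genes. It was also smaller than those of *P2ry13*, to 29.1%, *Gpr34*, to 46.4%, and *Cx3cr1*, to 56.4%, which are in the same list. It was larger than those of *Siglech*, to 71.2%, and *Sall1*, to 70.5%, also in that list. The log2 fold change of *Trem2*, -0.76, lay slightly beyond the list median of -0.69. These differences were not tested. The summed monocyte and dividing cell markers were higher in every CNV d3 sample in which these genes fell; the part of such cells in these decreases was not tested.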

How the data were processed

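Bulk RNA-seq was compared between 6 CNV d3 and 6 control samples of sorted retinal microglia. The 19 entries of the labels are 12 samples, since 7 are listed in 2 parts, which were merged and counted as 1. Those 7 are all 6 control samples and CNV d3 replicate 4, so the listing in parts nearly coincides with the groups. cDNA was made from picograms of RNA with 12 to 14 PCR cycles and without molecular identifiers, so depth describes counting error only. The authors mapped single reads with STAR to Gencode M25 and counted them per gene with featureCounts without strand. The submitters' processing notes name FastQC 0.72, STAR 2.7.2b, featureCounts 1.6.4, R 3.5.3 and DESeq2 1.22.2. The deposited signal is normalized counts, that is, reads per gene after division by the DESeq2 size factor of each sample, and the authors left out genes without any read. Every value was a whole multiple of what 1 read is worth (within 0.001 of a read), so reads were recovered for count tests. The authors' columns of group means, log2 fold changes and adjusted p-values were not used.

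Here log2(normalized counts + 1) of all 27299 genes was fitted with limma 3.58.1 (R 4.3.3, variance trend, no filter, no covariate). A gene passed at a Benjamini-Hochberg adjusted p under 0.05 and counted as a DEG if its log2 fold change was also above 1.5 or below -1.5. edgeR 4.0.16 and DESeq2 1.42.0 were run on the recovered reads as alternatives, and the fits were tested on simulated data. Single values were compared with exact permutation tests. Members and lists were chosen with earlier results of these data known. All members were named. Of the other lists, all genes were named where a list had at most 8, otherwise the 4 most abundant that passed and the most abundant that did not. Some further genes that passed, such as *Pik3r1* and *Sall1*, were named outside this rule. Marker lists are given by counts and sums. The values of 1 gene of the homeostatic list are not reported here. Coordinates and lengths (of the principal transcript) came from Gencode M21, to which 27238 genes matched by Ensembl identifier, and promoters from RefSeq. The labels share replicate numbers between groups, but same-numbered samples did not deviate together (correlations from -0.053 to 0.071), so they were not taken as pairs.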

Additional observations from a re-analysis of the deposited data

Results flagged for a closer look

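Each member was checked in each group for a sample that stands apart from the other 5, by the gap to its neighbour divided by the range of the group. Of 24 such groups, ratios included, 3 were past the critical value, where chance flags about 1 in 20. *Tyrobp* was at 34709 normalized counts in control replicate 3, with a gap of 0.683 of the range. *Cst7* was at 3418 in CNV d3 replicate 3, with a gap of 0.706, and this sample also had the lowest *Trem2*, the highest *Itgax* and *Gpnmb* and the highest summed monocyte markers among the lasered samples. *Gpnmb* was at 647 in control replicate 1, with a gap of 0.755, and 3 of the other 5 controls had no read.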

How the results depend on the processing

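All 10 members kept their direction in every alternative that was run, and *Trem2*, *Axl*, *Itgax*, *Cd9* and *Cd63* stayed called in all 22 alternatives chosen at the outset that were fitted across all genes. The replicate block, in a paired fit by replicate number, changed no member call and gave 1885 higher and 975 lower genes, against 2264 and 1247, and 22 higher and 22 lower list genes, against 27 and 22. *Gpnmb* lost its call in edgeR (2.75) and DESeq2 (2.77), so that both gave 0 increased DEG among the members, and *Timp2* passed with the filter (-0.21), in DESeq2 (-0.21) and in limma voom (-0.21). The split of all calls was 1749 higher against 1516 lower in edgeR and 2493 against 2170 in DESeq2, that is, more even than 2264 against 1247 in limma, and the median log2 fold change over all genes was -0.0067 in edgeR and -0.012 in DESeq2 against 0.15 in limma. At an adjusted p under 0.01, 3 members were increased, 0 were increased DEG and 17 list genes were higher. Leaving out each sample in turn gave log2 fold changes of 5.04 to 6.91 for *Gpnmb*, 0.93 to 1.39 for *Cst7* and -0.24 to -0.17 for *Timp2*. It gave 3 to 5 increased members and 0 to 2 increased DEG, with both *Gpnmb* and *Itgax* (1.54) as DEG without control replicate 2. Without control replicates 3 or 6 or CNV d3 replicate 1 the DEG was *Itgax* in place of *Gpnmb*, and without control replicate 4 or any of CNV d3 replicates 2 to 6 there was none.

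Added after the data were examined, CNV d3 replicates 1 to 3 alone gave 2 increased and 1 decreased members, 0 increased DEG, and 17 higher and 12 lower list genes. *Itgax* (1.44), *Cst7* (1.40), *Gpnmb* (5.74) and *Cd9* (-0.30) were then no longer called. CNV d3 replicates 1 and 4 alone gave 0 increased and 0 decreased members, 0 increased DEG, and 8 higher and 8 lower list genes, with log2 fold changes of -0.50 for *Trem2*, 1.19 for *Axl*, 1.16 for *Itgax*, 0.54 for *Cst7*, 4.97 for *Gpnmb*, -0.34 for *Cd9* and 0.59 for *Cd63*. Both have fewer samples than the comparison of all 12. Over all 27299 genes the fit with replicates 1 to 3 called 1022 higher and 540 lower, and that with replicates 1 and 4 called 672 and 154. The log2 ratio of *Trem2* to *Tyrobp* was -0.38 and that of *Axl* to *Mertk* 1.41 with replicates 1 and 4 alone (exact permutation p = 0.0357 for both, the smallest possible). Sex, monocyte and dividing cell markers, depth and the listing of samples in 2 parts all differ between the groups. Their contribution to the member changes was not tested beyond these values.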

Other observations

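The members differed in how evenly the lasered samples changed. The coefficient of variation among the 6 CNV d3 samples was 7.25% for *Timp2*, 13.1% for *Cd9*, 14.5% for *Axl* and 15.6% for *Cd63*, against 28.1% for *Itgax*, 64.2% for *Gpnmb* and 70.6% for *Cst7*. For *Trem2* it was 9.88% in control and 19.1% in CNV d3, and for *Axl* 28.1% and 14.5%. On the scale of normalized counts per kb of transcript, the members that rose began at very different levels. *Cd63* went from 9160 to 15245 per kb, *Axl* from 2439 to 6090 and from place 506 to 178 among 16008 protein-coding genes, *Cst7* from 537 to 1456 per kb, *Itgax* from 171 to 458 and *Gpnmb* from 40.3 to 275. *Lpl* was at 1043 and 1181 per kb and *Timp2* at 6372 and 5495. At CNV d3 *Axl* was thus at a higher level per kb than *Trem2*, at 5562, whereas in control *Trem2*, at 9291, was above *Axl*. The order in control depends on the length used, here the principal transcript, 1.088 kb for *Trem2* and 4.265 kb for *Axl*. Their merged exons measure 4.946 and 5.033 kb, and their mean normalized counts in control were 10109 and 10401. The difference between the genes was not tested.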
